A study of Mus musculus with 12 samples.

Results

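The genes described here are the 4 PFKFB enzymes and 5 genes of muscle glucose uptake: Pfkfb1, Pfkfb2, Pfkfb3, Pfkfb4, the glucose transporters Slc2a4 (GLUT4) and Slc2a1 (GLUT1), the vesicle regulators Tbc1d1 and Tbc1d4, and the hexokinase Hk2. They were chosen by symbol, with earlier results of these data known. All 9 were present among the 10475 genes of the deposited expression table. RNA came from gastrocnemius, a calf muscle, of C57BL/6 mice aged 8 weeks, kept on chow with 12 h of light and 12 h of dark. TG mice overexpressed E4BP4, a transcriptional repressor of the clock system, in the liver, and the promoter that drives it is not given in the sources used here. WT mice were the wild type. Muscle was sampled at ZT12, when the lights went off, and at ZT0, when they went on, which gave 4 groups of 3 libraries: TG at ZT12, WT at ZT12, TG at ZT0 and WT at ZT0. No group received a treatment.

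PFKFB enzymes are bifunctional: a kinase domain makes and a phosphatase domain breaks down the phosphofructokinase activator fructose bisphosphate in its regulatory form, so their balance sets the pace of the committed step of glycolysis. In muscle, insulin and contraction release GLUT4 from intracellular vesicles to the cell surface. The Rab GTPase-activating proteins TBC1D1 and TBC1D4 hold those vesicles back until AKT or AMPK phosphorylates them, and hexokinase II then traps the glucose that enters.

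The labels do not say whether each library came from its own animal, so a p-value here measures the spread between libraries, which may be technical. The files state no depth, but TPM (transcript abundance scaled for length and for the library) values turned into whole reads for 99.7 to 100% of the low values judged in each library, and these reads summed, in units of 1e+06, to 13.1 to 20.2 at ZT12 and 9.21 to 13.1 at ZT0. Depth therefore moved with time of day, and its part in the results was looked at by thinning. Thinning equalises read numbers only, so any other difference between libraries that went with time of day would remain. All 8 muscle fibre markers were present, with 84697 to 94895 TPM together, and none of 5 hepatocyte markers was among the listed genes. Every listed gene has 1 TPM or more in WT ZT0 replicate 1. Absence from the list may therefore reflect this library alone, and cannot exclude liver transcripts in the others. WT ZT0 replicate 2 stood apart, with a median correlation of 0.945 with the other libraries, followed by TG ZT12 replicate 1 at 0.975, against 0.979 to 0.985 for the rest. Muscle Nfil3, which encodes E4BP4, ran from 7.96 to 20.9 TPM in TG libraries and from 7.40 to 18.7 TPM in WT libraries. It does not check the genotype labels, since the transgene acts in another organ.

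Over the 12 libraries, the genes were ordered by mean transcript level, measured in TPM and so per length. Slc2a4 was the highest, with a mean of 176 TPM, and its range of 125 to 217 TPM lay above every library of the other 8 genes. Hk2 followed at 57.4 TPM and Pfkfb3 at 38.1 TPM, but their ranges of 36.1 to 77.1 TPM and 8.28 to 97.0 TPM overlapped. Pfkfb4 at 23.8 TPM, Pfkfb1 at 21.0 TPM and Tbc1d1 at 14.4 TPM also overlapped as neighbours. Slc2a1 at 4.08 TPM and Tbc1d4 at 3.92 TPM did not differ beyond their spread, and Pfkfb2 was the lowest at 1.51 TPM. Below Slc2a4, the range of each gene overlapped that of the next, so the order did not hold throughout. At ZT0, Pfkfb3 averaged 16.2 TPM, below Pfkfb4 at 28.5 TPM and Pfkfb1 at 24.5 TPM. The spread over libraries also differed: the coefficient of variation was 75.9% for Pfkfb3 and 13.3% for Slc2a4. Transcripts from fewer cells of a type and less RNA per cell cannot be told apart in such bulk samples.

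**Figure D1:**
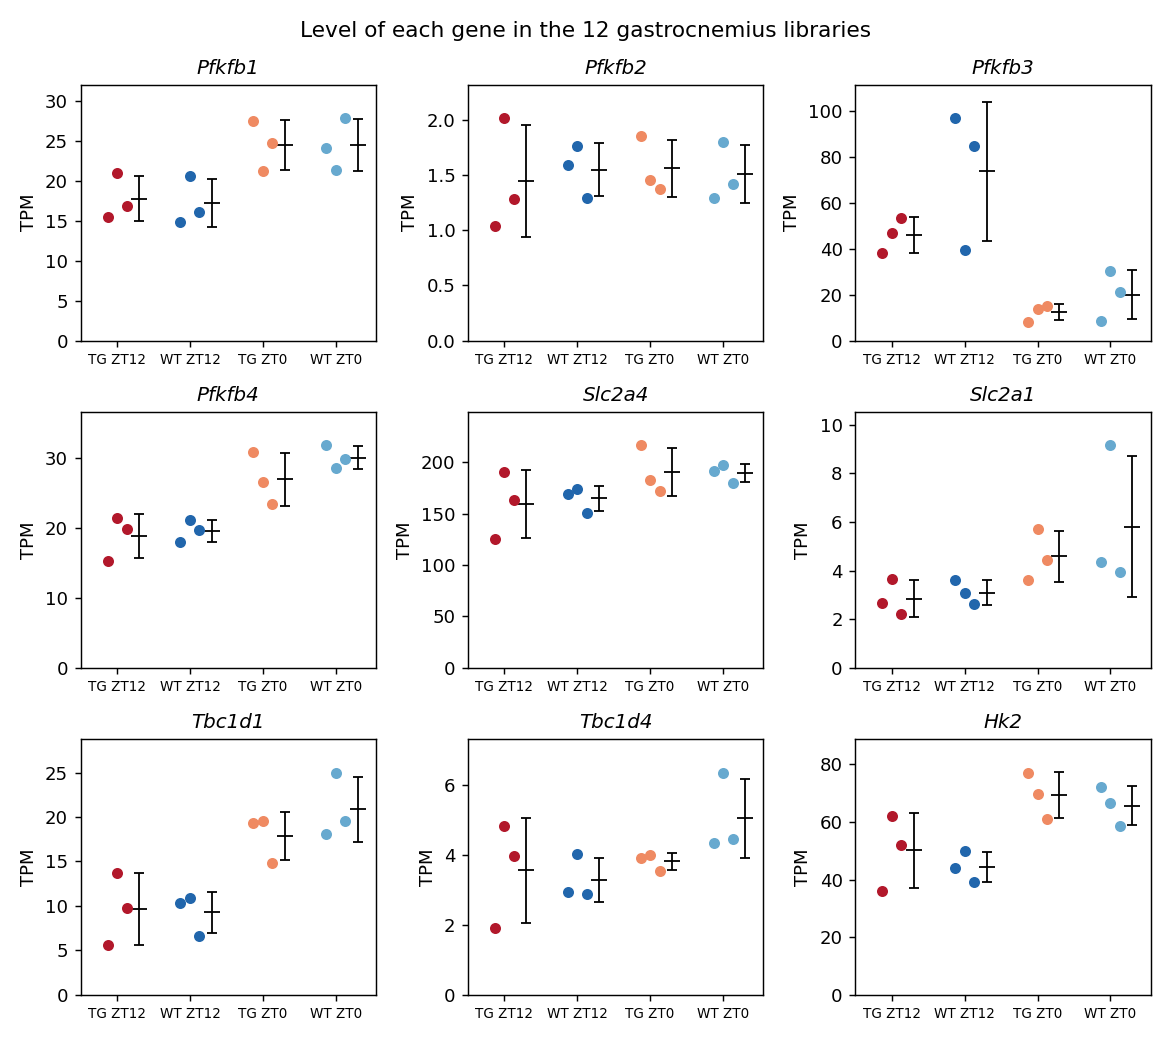
Level of each gene in TPM in the 12 libraries. Each point is 1 library, and the bar beside each group is the mean with its SD (n = 3); groups run TG ZT12, WT ZT12, TG ZT0 and WT ZT0. Pfkfb3 lies between 38.0 and 97.0 TPM at ZT12 and between 8.28 and 30.2 TPM at ZT0, while most other genes lie lower at ZT12.

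The largest difference among these genes was between the times of day. Pfkfb3 rose at ZT12 relative to ZT0, whereas Pfkfb4 and Tbc1d1 fell, in a comparison of the 6 libraries of each time with genotype held in the model. Thus 3 of 9 genes passed an adjusted p of 0.05 (limma, Benjamini-Hochberg over 10415 tested genes), against 1.02% of all tested genes. By direction, 1 was among the 0.403% of genes called higher and 2 were among the 0.614% called lower. At an unadjusted p under 0.05 there were 7 of 9, against 7.35% of all tested genes. In 4 of 9 genes the 6 libraries of each time did not overlap (Pfkfb3 higher, and Pfkfb1, Pfkfb4 and Tbc1d1 lower at ZT12), against 0.538% of tested genes higher and 0.989% lower without overlap. The median difference of the 9 genes was -0.47 on the log2(TPM + 1) scale, against -0.03 over all tested genes. On this scale 1 is added to every TPM value, which shrinks the differences of the low genes Pfkfb2, Slc2a1 and Tbc1d4 most. Because the 9 genes were chosen with earlier results of these data known, the shares beside them are a description and not a test of enrichment.

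Pfkfb3 encodes the inducible isoenzyme, whose kinase activity far exceeds its phosphatase activity. Its gene lies at chr2:11471431-11553929 on the minus strand (mm10), and the deposited tables name transcripts from a pair of starts, at 11553929 and 11502090. The TPM values came out as whole reads in 12 of 12 libraries with the 4638-base length of the upstream transcript, and in 3 of 12 with the 5023-base length of the downstream one. Because exon reads were summed per gene, the level does not tell these starts apart. The promoters of both are shown because Pfkfb3 carried the largest change; they run from 250 bases before to 50 bases after the start and come from RefSeq (GRCm38.p6). Capitals mark matches to the motifs searched on both strands: the E-box CACGTG bound by clock factors, a D-box (TTACGTAA or TTATGTAA) of the kind bound by E4BP4, the REV-ERB and ROR element AGGTCA, and the core ACGTG of a hypoxia element.
Pfkfb3, upstream start, chr2:11553880-11554179, minus strand: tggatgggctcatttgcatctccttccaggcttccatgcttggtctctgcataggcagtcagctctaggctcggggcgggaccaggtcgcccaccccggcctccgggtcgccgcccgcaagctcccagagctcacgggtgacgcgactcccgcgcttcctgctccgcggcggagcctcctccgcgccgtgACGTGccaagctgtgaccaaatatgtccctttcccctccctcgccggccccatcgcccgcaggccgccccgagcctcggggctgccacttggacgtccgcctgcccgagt
Pfkfb3, downstream start, chr2:11502041-11502340, minus strand: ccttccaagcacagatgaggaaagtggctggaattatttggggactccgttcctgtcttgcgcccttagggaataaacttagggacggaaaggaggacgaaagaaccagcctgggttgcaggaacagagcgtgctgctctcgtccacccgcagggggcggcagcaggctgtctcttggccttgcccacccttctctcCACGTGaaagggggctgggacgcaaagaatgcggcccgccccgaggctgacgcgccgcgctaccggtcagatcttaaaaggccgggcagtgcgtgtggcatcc

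With the first transcribed base as 1 and no position 0, the upstream promoter held ACGTG at -60. The downstream promoter held an E-box at -53, which itself contains ACGTG on each strand. Among 32851 RefSeq mouse promoters of this length, 7.15% held CACGTG, 19.6% held ACGTG, 16.3% held AGGTCA and 1.06% held either D-box. Neither Pfkfb3 promoter matched a D-box or AGGTCA. These matches describe letters in a window and say nothing about binding.

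Pfkfb3 stood at 38.0, 46.8 and 53.4 TPM in TG muscle at ZT12 and at 97.0, 39.6 and 85.0 TPM in WT muscle at ZT12. At ZT0 it stood at 8.28, 13.8 and 15.0 TPM in TG muscle and at 8.68, 30.2 and 21.2 TPM in WT muscle. Every ZT12 library lay above every ZT0 library, the lowest being 38.0 TPM at ZT12 and the highest 30.2 TPM at ZT0. The means were 60.0 ± 24.9 TPM at ZT12 and 16.2 ± 8.35 TPM at ZT0 (SD, n = 6 each), a ratio of 3.70. On the log2 scale the difference was 1.87 with a standard error of 0.28 (adjusted p = 0.00447, limma). That difference exceeded 99.9% of the tested genes. After thinning all libraries to the shallowest, it was 1.90 (adjusted p = 0.003437). The gene rested on 3207 to 10611 reads per library at ZT12 and on 450 to 1975 reads at ZT0.

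Pfkfb4 encodes an isoenzyme first described in testis and induced by hypoxia in many cells. Its gene lies at chr9:108991902-109032225 on the plus strand, and its promoter is shown because the gene moved against Pfkfb3.
Pfkfb4, chr9:108991652-108991951, plus strand: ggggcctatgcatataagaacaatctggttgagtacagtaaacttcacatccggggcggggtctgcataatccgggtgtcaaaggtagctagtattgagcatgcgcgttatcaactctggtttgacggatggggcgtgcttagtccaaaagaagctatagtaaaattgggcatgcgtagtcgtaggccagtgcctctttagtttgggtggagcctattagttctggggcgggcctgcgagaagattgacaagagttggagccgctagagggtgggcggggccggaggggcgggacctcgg
None of the 4 motifs was found in this window. Pfkfb4 had 15.2, 21.3 and 19.9 TPM in TG muscle at ZT12 and 17.9, 21.1 and 19.6 TPM in WT muscle at ZT12. At ZT0 it had 30.8, 26.5 and 23.4 TPM in TG muscle and 31.8, 28.5 and 29.8 TPM in WT muscle. All ZT12 values lay below all ZT0 values. The mean was 19.2 ± 2.30 TPM at ZT12 and 28.5 ± 3.10 TPM at ZT0 (SD, n = 6 each), and the log2 difference was -0.55 with a standard error of 0.10 (adjusted p = 0.0132, limma). With thinned reads the difference was -0.55 (adjusted p = 0.0142, limma).

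Pfkfb1 encodes the isoenzyme of liver and skeletal muscle, on chromosome X (150589921 to 150643878, plus strand). It had 15.5, 21.0 and 16.8 TPM in TG muscle at ZT12 and 14.9, 20.6 and 16.1 TPM in WT muscle at ZT12. The corresponding ZT0 values were 27.5, 21.3 and 24.7 TPM in TG muscle and 24.2, 21.4 and 27.9 TPM in WT muscle. The times did not overlap, although the highest ZT12 library (21.0 TPM) came close to the lowest ZT0 library (21.3 TPM). Means were 17.5 ± 2.63 TPM at ZT12 and 24.5 ± 2.86 TPM at ZT0 (SD, n = 6 each), with a log2 difference of -0.47 and a standard error of 0.11. This missed the threshold (adjusted p = 0.0732, limma) and passed it in 5 of 23 alternative settings. In exons, 123 of its 4017 annotated bases overlap Apex2 on the opposite strand, and reads of the pair cannot be told apart without strand; Apex2 averaged 2.12 TPM. RefSeq lists several starts for Pfkfb1, and the window at the start nearest the deposited one held the AGGTCA motif, on its minus strand at -100.

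Pfkfb2, the isoenzyme best known from heart, was the lowest of the 9 genes. It ranged from 1.03 to 2.01 TPM at ZT12 and from 1.29 to 1.86 TPM at ZT0, on 53 to 138 reads per library. The log2 difference was -0.03, with a 95% interval of -0.29 to 0.23, and its sign turned in 4 of 22 alternative settings. Of its 7254 annotated exon bases, 1262 overlap the same-strand gene Gm29427 and 154 overlap Yod1, so that part of this low level is uncertain. One of its RefSeq promoters held an E-box at -22, with ACGTG on each strand inside it, and another held ACGTG at -172. Their starts, at 130715821 and 130714576, are not the start of the deposited transcript, at 130729253, whose promoter was not searched.

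The opposite movements changed the make-up of PFKFB transcripts. Pfkfb3 made up 47.7 to 73.8% of the summed PFKFB TPM in the ZT12 libraries and 12.1 to 36.9% in the ZT0 libraries. Pfkfb4 made up 20.3 ± 4.53% at ZT12 and 40.6 ± 5.37% at ZT0, and Pfkfb1 18.8 ± 5.52% at ZT12 and 35.0 ± 4.94% at ZT0 (SD, n = 6 each). Pfkfb3 was the most abundant of the family in all 6 ZT12 libraries and, at ZT0, only in WT replicate 2, the library least like the others, where it had 30.2 TPM and Pfkfb4 28.5 TPM. The ratio of Pfkfb3 to Pfkfb4 ran from 1.88 to 5.41 at ZT12 and from 0.268 to 1.06 at ZT0. The summed PFKFB level was 98.1 ± 23.7 TPM at ZT12 and 70.7 ± 8.29 TPM at ZT0, and these ranges overlapped (69.8 to 131 TPM and 63.0 to 81.9 TPM). Without Pfkfb3, the sum of Pfkfb1 and Pfkfb4 was 36.7 ± 4.65 TPM at ZT12 and 53.0 ± 4.91 TPM at ZT0. These shares and sums were not tested, since they are made from the levels tested above.

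**Figure D2:**
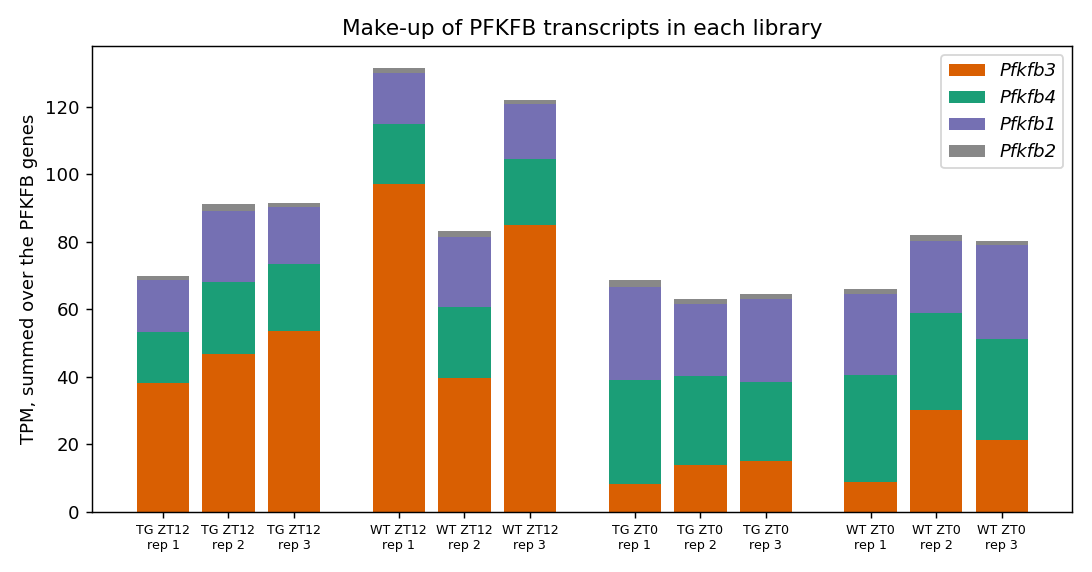
Summed TPM of the 4 PFKFB genes in each of the 12 libraries, stacked by gene, with ZT12 libraries on the left and ZT0 libraries on the right. The Pfkfb3 portion is 47.7 to 73.8% of each ZT12 bar and 12.1 to 36.9% of each ZT0 bar.

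Neither transporter passed the test for time of day. Slc2a4, the insulin-responsive transporter (chr11:69942286-69948190, minus strand), had 125, 191 and 163 TPM in TG muscle at ZT12 and 169.7, 174 and 151 TPM in WT muscle at ZT12. At ZT0 it had 217, 183 and 173 TPM in TG muscle and 192, 197 and 179.9 TPM in WT muscle. The times overlapped through the TG libraries, and the means were 162 ± 22.5 TPM at ZT12 and 190.2 ± 15.6 TPM at ZT0 (SD, n = 6 each). The log2 difference of -0.23, with a standard error of 0.10, did not pass (adjusted p = 0.551, limma).

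Slc2a1 encodes the basal transporter, which is also abundant in blood vessel cells, and lies at chr4:119108745-119137329 on the plus strand. It had 2.66, 3.67 and 2.21 TPM in TG muscle at ZT12 and 3.61, 3.06 and 2.62 TPM in WT muscle at ZT12. At ZT0 it had 3.60, 5.70 and 4.45 TPM in TG muscle and 4.34, 9.15 and 3.94 TPM in WT muscle. The value of 9.15 TPM belonged to WT ZT0 replicate 2. The 8 endothelial markers, all listed and none at 0 in any library, were highest in the same library, at 134 TPM together, against 70.1 to 112 TPM in the ZT12 libraries and 71.2 to 85.2 TPM in the other ZT0 libraries. The part of vessel content in the Slc2a1 level was not tested. Its log2 difference between times was -0.60 with a standard error of 0.18 (adjusted p = 0.207, limma) and -0.45 without that library (adjusted p = 0.166). Slc2a4 exceeded Slc2a1 by 55.8 ± 9.99 times at ZT12 and by 40.4 ± 13.1 times at ZT0, and this ratio overlapped between times (47.0 to 73.9 and 21.6 to 60.1).

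Of the pair of vesicle regulators, Tbc1d1 fell at ZT12 and Tbc1d4 did not pass the test. Tbc1d1, which predominates in fast glycolytic muscle, lies at chr5:64230357-64351486 on the plus strand. Its promoter at the deposited start is shown because this gene had the largest fall of the 9.
Tbc1d1, chr5:64230107-64230406, plus strand: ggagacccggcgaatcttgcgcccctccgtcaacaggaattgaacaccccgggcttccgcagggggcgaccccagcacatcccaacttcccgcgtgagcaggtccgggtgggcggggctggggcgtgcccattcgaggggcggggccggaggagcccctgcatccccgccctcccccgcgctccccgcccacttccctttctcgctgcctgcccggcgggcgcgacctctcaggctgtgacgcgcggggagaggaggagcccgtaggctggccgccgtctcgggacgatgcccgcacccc
None of the 4 motifs was found in it. The window is rich in G and C, which make up 74% of its bases, against 54.3% in the Pfkfb4 window. RefSeq lists another Tbc1d1 start, at 64160260, and its window held none of the 4 motifs either. The first bases after the start shown occurred in 0 of 8 annotated transcripts (GENCODE M21), against 5 of 8 for the other start. Tbc1d1 had 5.61, 13.7 and 9.79 TPM in TG muscle at ZT12 and 10.4, 10.9 and 6.65 TPM in WT muscle at ZT12. At ZT0 it had 19.3, 19.5 and 14.8 TPM in TG muscle and 18.1, 25.0 and 19.6 TPM in WT muscle. All ZT12 libraries were lower than all ZT0 libraries. The means were 9.50 ± 2.95 TPM at ZT12 and 19.4 ± 3.30 TPM at ZT0 (SD, n = 6 each), a ratio of 0.490, and the log2 difference was -0.99 with a standard error of 0.18 (adjusted p = 0.0177, limma). With thinned reads the difference was -0.98 (adjusted p = 0.0252, limma). Leaving out a TG library at ZT0 put the adjusted p just past the threshold, at 0.052 without replicate 1 and 0.0548 without replicate 2, while the difference stayed at -0.98; the call held in the other 10 fits with 1 library left out.

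Tbc1d4, also known as AS160 and the main AKT substrate of the pair, lies at chr14:101442360-101609191 on the minus strand. It had 1.90, 4.82 and 3.95 TPM in TG muscle at ZT12 and 2.95, 4.01 and 2.89 TPM in WT muscle at ZT12. The ZT0 values were 3.91, 4.0 and 3.53 TPM in TG muscle and 4.33, 6.35 and 4.45 TPM in WT muscle. The times overlapped, and the log2 difference was -0.31 with a standard error of 0.17 (adjusted p = 0.825, limma). Its highest value was in WT ZT0 replicate 2 and its lowest in TG ZT12 replicate 1, and a fit that dropped both gave a difference of -0.09. The median difference of all tested genes rose as well in that fit, from -0.03 to 0.09. Dropping the highest ZT0 value and the lowest ZT12 value of a gene must make its fall smaller. The reason for the move of Tbc1d4 was not tested. Tbc1d1 exceeded Tbc1d4 by 2.80 ± 0.424 times at ZT12 and by 4.42 ± 0.403 times at ZT0, and this ratio did not overlap between times (2.30 to 3.52 and 3.94 to 4.93).

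Hk2, the hexokinase that phosphorylates glucose on entry into insulin-sensitive tissue, lies at chr6:82725027-82774454 on the minus strand. It had 36.1, 62.2 and 51.9 TPM in TG muscle at ZT12 and 44.0, 49.9 and 39.3 TPM in WT muscle at ZT12. At ZT0 it had 77.1, 69.8 and 61.0 TPM in TG muscle and 72.0, 66.5 and 58.4 TPM in WT muscle. The times overlapped through TG ZT12 replicate 2, the one ZT12 library above 58.4 TPM. Hk2 averaged 47.2 ± 9.48 TPM at ZT12 and 67.5 ± 6.98 TPM at ZT0 (SD, n = 6 each), and the log2 difference was -0.52 with a standard error of 0.12. The adjusted p was 0.0695 (limma), and it was 0.02 without TG ZT12 replicate 2 and 0.0108 with median-of-ratios scaling, but it reached 0.185 with another library left out. Of the 12 fits with 1 library left out, 1 called Hk2. Its promoter held ACGTG on the minus strand at -226 and -52, and that of Slc2a1 held it at -36.

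The differences between times had the same sign in both genotypes for 8 of 9 genes, all but Pfkfb2, and each genotype has its own libraries. For Pfkfb3 the log2 difference between ZT12 and ZT0 was 1.84 in TG muscle and 1.89 in WT muscle, each with a standard error of 0.41. For Tbc1d1 it was -0.88 in TG muscle and -1.10 in WT muscle, and for Pfkfb4 -0.50 in TG muscle and -0.60 in WT muscle. Hk2 gave -0.49 in TG muscle and -0.56 in WT muscle, and Pfkfb1 gave -0.44 in TG muscle and -0.49 in WT muscle. Within a genotype, 0 of 9 genes passed the adjusted threshold. In TG muscle 0.154% of tested genes did (0.0384% higher and 0.115% lower), and in WT muscle 0.115% did (0.0192% higher and 0.096% lower). The smallest adjusted p was that of Pfkfb3, at 0.182 in TG muscle and 0.143 in WT muscle (limma). At an unadjusted p under 0.05 there were 5 of 9 in TG muscle, against 3.53% of tested genes, and 6 of 9 in WT muscle, against 4.65% of tested genes.

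Separation of the raw values was less complete in TG muscle than in WT muscle. In TG muscle the same 4 of 9 genes did not overlap between times, against 3.21% of tested genes that were higher without overlap and 3.87% that were lower. In WT muscle 8 of 9 did not overlap (Pfkfb3 higher, and all but Pfkfb2 of the rest lower), against 5.62% higher and 5.2% lower. That count does not show a weaker time difference in TG muscle: the interaction of genotype and time was called for 0 of 9 members and for 0% of tested genes (limma), and at an unadjusted p under 0.05 for 0 of 9 members and 0.663% of tested genes. The interaction of Pfkfb3 was -0.05, with a 95% interval of -1.32 to 1.23. The largest among these genes was that of Tbc1d4, at 0.35 with a 95% interval of -0.39 to 1.09. Intervals this wide allow sizeable differences between the genotypes in either direction.

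**Figure D3:**
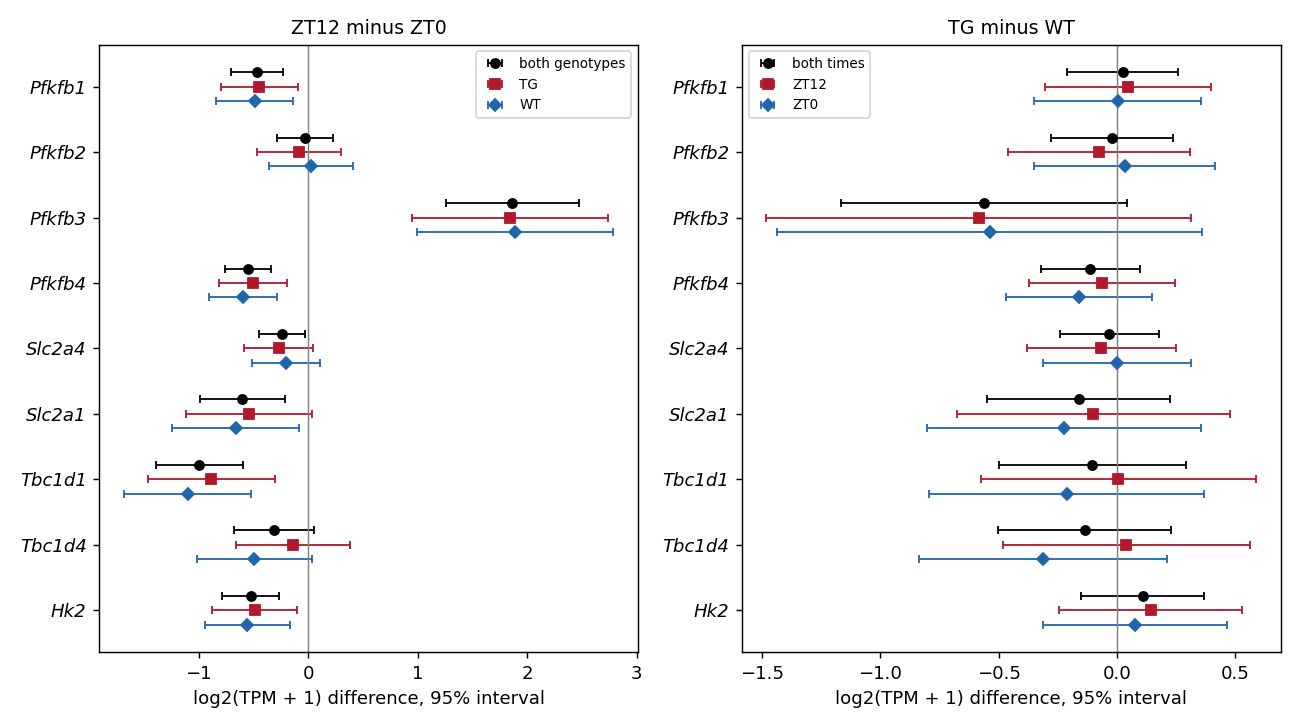
Differences in log2(TPM + 1) with 95% intervals from limma for each gene: ZT12 minus ZT0 on the left, in both genotypes together, in TG and in WT; TG minus WT on the right, at both times together, at ZT12 and at ZT0. Pfkfb3 lies at 1.87 for time of day over both genotypes, and all intervals for TG minus WT include 0.

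Liver E4BP4 overexpression was not accompanied by a called difference in any of these genes in muscle. With both times in the model, 0 of 9 genes and 0% of the 10415 tested genes passed (limma), and at an unadjusted p under 0.05 there were 0 of 9 members and 1.59% of tested genes. The 6 TG and 6 WT libraries overlapped for 9 of 9 genes, against 0% of tested genes higher and 0.0384% lower without overlap. The same 0 of 9 and 0% held at ZT12, where 0.951% of tested genes had an unadjusted p under 0.05, and at ZT0, where 1.12% did. The median of all tested genes was -0.09 for TG minus WT over both times. At ZT0 it was -0.10 and moved by over 0.1 with upper-quartile scaling, to 0.006.

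Pfkfb3 had the largest genotype difference of the 9. It averaged 46.1 ± 7.73 TPM in TG and 73.8 ± 30.2 TPM in WT muscle at ZT12, and 12.4 ± 3.58 TPM in TG and 20.05 ± 10.8 TPM in WT muscle at ZT0 (SD, n = 3 each). The log2 difference over both times was -0.56 with a 95% interval of -1.17 to 0.04 (adjusted p = 0.929, limma), and it was -0.58 at ZT12 and -0.54 at ZT0. It kept its sign in 23 of 23 alternative settings, between -0.78 and -0.31, and was called in 0 of them. TG and WT libraries overlapped at both times, because WT replicate 2 at ZT12 (39.6 TPM) and WT replicate 1 at ZT0 (8.68 TPM) lay within the TG range. In the authors' deposited table, the log2 fold change of Pfkfb3 in TG over WT was -0.15 at ZT12 (p = 0.101, adjusted p = 1.00) and -0.08 at ZT0 (p = 0.386, adjusted p = 1.00). Both are smaller in size than the log2(TPM + 1) differences above, and the reason was not tested.

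The other genes lay closer to 0 between genotypes. Hk2 differed by 0.11 between TG and WT over both times, with a 95% interval of -0.15 to 0.37. For Slc2a4 the difference was -0.03 (-0.24 to 0.18), for Pfkfb4 -0.11 (-0.32 to 0.10), and for Pfkfb1 0.02 (-0.21 to 0.26). The wider intervals of Tbc1d1 (-0.50 to 0.29), Tbc1d4 (-0.50 to 0.23) and Slc2a1 (-0.55 to 0.23) leave room for larger differences. Pfkfb2 differed by -0.02 (-0.28 to 0.24). Its sign turned in 7 of 22 alternative settings, and the signs for Slc2a4 and Pfkfb1 each turned in 4 of 23. Only Tbc1d4 at ZT0 showed groups without overlap, at 3.53 to 4.0 TPM in TG and 4.33 to 6.35 TPM in WT muscle. That is 1 of 9 genes, against 3.22% of tested genes lower and 1.4% higher without overlap at ZT0, and its adjusted p was 0.998 (limma). At ZT12 it was 0 of 9, against 4.26% lower and 0.528% higher.

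Several of these genes also varied together within groups. After the group means were removed, the correlation of log2 levels over the 12 libraries was 0.953 for Slc2a4 with Hk2 and 0.900 for Tbc1d1 with Tbc1d4, and it was -0.28 for Pfkfb3 with Hk2. Whole libraries moved in the same way: TG ZT12 replicate 1 was below its group mean for 9 of 9 genes, with a median deviation of -0.28, and all tested genes in it had a median deviation of -0.23. TG ZT12 replicate 2 was above its group mean for 9 of 9, with a median deviation of 0.30, against 0.19 over all tested genes. Red cell markers (5 of 6 listed) were also uneven at ZT12, at 145 to 4565 TPM in TG and 176 to 4257 TPM in WT libraries, against 110 to 156 TPM in TG and 86.2 to 163 TPM in WT libraries at ZT0. All 5 were higher at ZT12 (median log2 difference 3.11), and 0 were called. The rise lay in replicates 1 and 2 of both genotypes, while replicate 3 at ZT12 had 145 TPM in TG and 176 TPM in WT muscle. Other marker lists leaned with time of day, although 0 of their genes were called. All 7 slow fibre markers were higher at ZT12 (median log2 difference 0.42), with sums of 264 to 590.4 TPM in TG and 379 to 789 TPM in WT libraries at ZT12 and 314 to 587 TPM in TG and 153 to 700.5 TPM in WT libraries at ZT0. All 5 fibro-adipogenic markers were higher (median 0.15), with sums of 381 to 609.7 TPM in TG and 507 to 571 TPM in WT libraries at ZT12 and 382 to 478 TPM in TG and 373 to 412 TPM in WT libraries at ZT0. The 5 listed of 7 Schwann cell and perineurium markers were lower (median -0.45), with sums of 27.8 to 124 TPM in TG and 70.5 to 126 TPM in WT libraries at ZT12 and 86.5 to 144 TPM in TG and 97.1 to 121 TPM in WT libraries at ZT0. Endothelial markers were higher in 7 of 8 (median 0.07), and adipocyte markers lower in 5 of 6 (median -0.13). Muscle fibre markers (4 of 8 higher) and macrophage markers (3 of 5 higher) were split. No marker of these lists was at 0 in any library. The part of blood, fibre type or other cell content in the time differences was not tested.

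The profiles most like each gene were ranked by the Pearson correlation of log2(TPM + 1) over the 12 libraries, among about 6130 genes with a mean of at least 5 TPM. Pfkfb3 was most like Cdkn1a (r = 0.931), which encodes the cell cycle inhibitor p21, Dusp10 (0.923), a MAP kinase phosphatase, and Thra (0.917), a thyroid hormone receptor. Tbc1d1 was most like Klhl33 (0.976), Fkbp5 (0.968), a glucocorticoid-responsive co-chaperone, and Mylk4 (0.966). For Pfkfb4 these were Mir8114 (0.975), a miRNA locus annotated at the start of Glul whose reads cannot be told apart from it, Glul (0.953), which encodes glutamine synthetase, and Slc25a30 (0.947). Hk2 ranked nearest to Tmem57 (0.964), Faap100 (0.962) and Asb15 (0.947), and Slc2a4 to Dok7 (0.979), a neuromuscular junction adaptor, Kcnj12 (0.966) and Atl2 (0.955). Pfkfb1 had Ankrd9 (0.932), Arrdc2 (0.911) and Noct (0.906), which encodes nocturnin. The low genes ranked nearest to Rbm5 (0.951), Hist3h2a (0.926) and Trim47 (0.918) for Slc2a1, to Picalm (0.953), Nlrx1 (0.950) and Zer1 (0.944) for Tbc1d4, and to Slc25a12 (0.959), Sdha (0.955) and Hspa9 (0.949) for Pfkfb2. These correlations share the libraries, their scaling and their time of day, and are given as a description.

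Few of the genes around this pathway were called between times of day. In 6 lists holding the partners of these genes, 1 of 80 tested genes was called, or 1.25%, against 1.02% of all tested genes, and the median difference was -0.05. At an unadjusted p under 0.05 (limma) there were 8 of 80, against 7.35% of all tested genes. The 9 genes and the lists were chosen with earlier results of these data known, so their contrast is a description and not a test. GLUT4 vesicle traffic had 20 of 21 genes tested and 0 called, with a median of -0.04. In that list Stxbp3, a syntaxin-binding regulator of GLUT4 fusion, had 10.3 ± 1.04 TPM at ZT12 and 8.26 ± 0.736 TPM at ZT0 (adjusted p = 0.231), and Vamp2, a vesicle SNARE, 15.6 ± 2.02 TPM at ZT12 and 18.2 ± 2.59 TPM at ZT0 (adjusted p = 0.827). Of 8 other hexose transporters 3 were tested and 0 called, with a median of -0.09. There, the neuronal-type transporter Slc2a3 had 2.00 ± 0.635 TPM at ZT12 and 3.14 ± 0.958 TPM at ZT0 (adjusted p = 0.453), and Slc2a8 had 6.07 ± 0.83 TPM at ZT12 and 6.50 ± 0.477 TPM at ZT0 (adjusted p = 0.988; SD, n = 6 each throughout, limma).

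In the steps next to PFKFB, the same held with 1 exception. The first and committed steps of glycolysis and their reversal had 10 of 13 genes tested and 0 called, with a median of -0.11. In that list Tigar, a fructose bisphosphatase, had 47.2 ± 7.39 TPM at ZT12 and 54.3 ± 4.31 TPM at ZT0 (adjusted p = 0.747). All 19 insulin and AMPK kinase genes were tested and 0 called, with a median of -0.04. The catalytic PI3K subunit Pik3ca had 9.87 ± 1.54 TPM at ZT12 and 6.76 ± 0.948 TPM at ZT0 (adjusted p = 0.0834), and the regulatory subunit Pik3r1 had 5.18 ± 1.61 TPM at ZT12 and 9.30 ± 2.68 TPM at ZT0 (adjusted p = 0.159). Neither passed. All 16 genes of hypoxia-inducible factor and its other targets were tested and 0 called, with a median of 0.04; Mxi1 gave -0.18 (adjusted p = 0.955) and Eno1, whose reads may be shared with pseudogene copies, -0.19 (adjusted p = 0.985). Among 12 glycogen genes, with a median of -0.08, only Stbd1, which tethers glycogen to membranes, was called. It had 32.0, 54.2 and 43.3 TPM in TG and 32.0, 50.1 and 43.7 TPM in WT muscle at ZT12, against 29.1, 26.5 and 22.6 TPM in TG and 28.6, 24.2 and 24.2 TPM in WT muscle at ZT0. The groups did not overlap, and the log2 difference was 0.68 with a standard error of 0.13 (adjusted p = 0.0276, limma). In the other 6 comparisons 0 of the 80 genes was called.

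**Figure D4:**
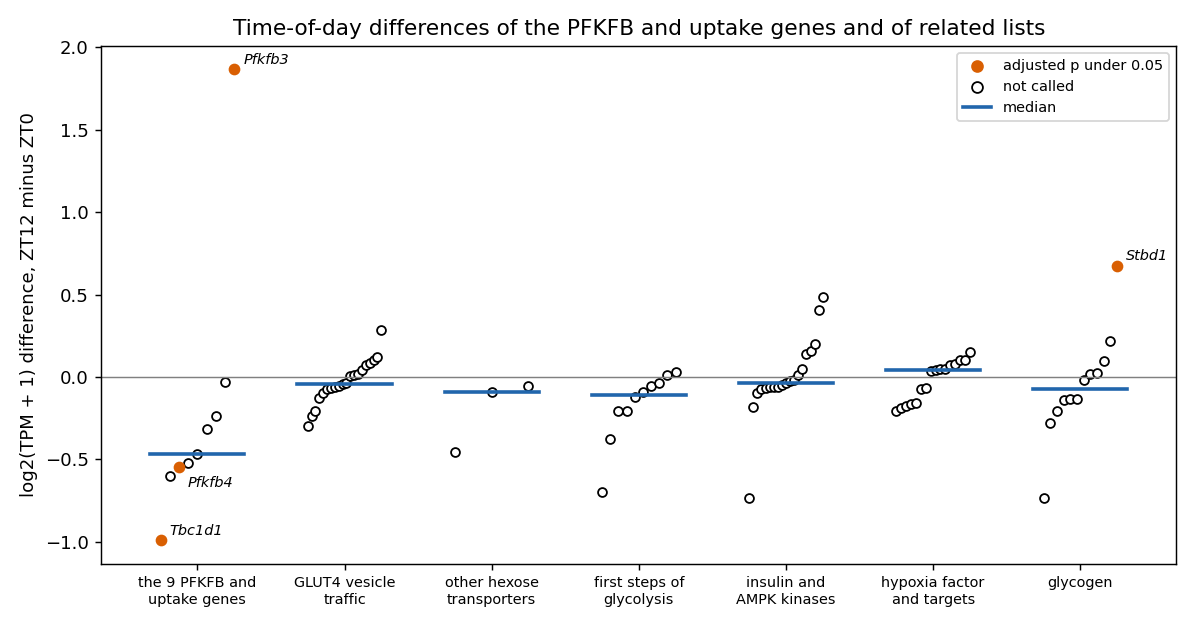
Difference in log2(TPM + 1) between ZT12 and ZT0, both genotypes together, for the 9 PFKFB and uptake genes and for 6 lists of related genes. Each point is 1 gene, filled points have an adjusted p under 0.05, and lines are list medians. Pfkfb3 (1.87) and Tbc1d1 (-0.99) lie outside the range of every related list, and the median of the 9 genes is -0.47, against -0.11 to 0.04 for the lists.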

How the data were processed

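Poly(A) RNA libraries of 12 samples were analysed; per the labels, the kit does not mark strand. Per the submitters' processing notes, bcl2fastq, STAR, HOMER 4.11.1 and DESeq2 were used on mm10. The deposited main table holds TPM made by the authors. A table for each time holds, per the file headers, HOMER exon values, which are log2 values deposited under an FPKM heading, and also the transcript length, the p-value and the log2 fold change that the authors computed; lengths were used to recover reads (within 0.1 read, for values under 500 reads). The TPM of WT ZT0 replicate 1 is 1 or more for each gene in the main table.

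No counts were used for the main test. Log2(TPM + 1) was fitted with limma 3.58.1 (trend, R 4.3.3) over 12 libraries, for genes that reached 1 TPM in 3 or more libraries, as 4 group means or as genotype plus time. P-values were Benjamini-Hochberg adjusted over all genes tested, and the test was checked on simulated data. Named genes were all 9 members, called genes of the 6 related lists or else the 2 of smallest p in each, and the 3 most alike profiles. The values of 1 gene so named are not reported here. Members and lists were chosen with earlier results of these data known. Promoters (RefSeq, GRCm38.p6) matched 8 of 9 members, and exon overlaps came from GENCODE M21. Alternatives changed scaling, filter, pseudocount, composition, block, test or libraries; 2 were added after seeing the data. Other steps used pandas 2.3.3 and numpy 2.4.6 in Python 3.11.15, and figures matplotlib 3.10.9.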

Additional observations from a re-analysis of the deposited data

Results flagged for a closer look

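Tbc1d4 over the 6 ZT0 libraries was marked because 1 library lay far from the rest: WT replicate 2 had 6.35 TPM, while the others had 3.53 to 4.45 TPM. Its gap to the nearest library was 0.674 of the whole range, above the 95% critical value of Dixon's test for 6 libraries. Of 18 such groups looked at, 1 was marked, and chance marks about 1 in 20. The same library had the lowest correlation with the others (0.945), the highest sum of endothelial markers (134 TPM) and the highest Slc2a1 (9.15 TPM). The part of these in the Tbc1d4 value was not tested.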

How the results depend on the processing

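Pfkfb3 and Pfkfb4 were called between times in 23 of 23 alternatives (adjusted p 0.00145 to 0.0172 and 0.00198 to 0.0439), and Tbc1d1 in 21 of 23; 0 called values changed sign. Hk2 was called in 6 of 23, Pfkfb1 in 5 of 23 and Slc2a1 in 2 of 22. Over both genotypes, 106 genes were called (42 higher, 64 lower). Median-of-ratios scaling called 233 (106 higher, 127 lower), upper-quartile scaling 220, limma-voom on recovered reads 217 and the fit without both least alike libraries 464 (365 higher, 99 lower), and leaving out 1 library gave 70 to 160. Members called were 5 in place of 3 under each of these 4 settings and with the 10 highest genes removed, and 2 to 5 with 1 library left out (5 without TG ZT12 replicate 2). In the fit without both libraries, the median time difference of all tested genes was 0.09, against -0.03 in the main fit. In WT muscle, 12 genes (2 higher, 10 lower) and 0 members were called. These became 55 genes (29 higher, 26 lower) and 1 member with median-of-ratios scaling, 47 and 1 with upper-quartile scaling, 56 and 2 with limma-voom, 73 and 2 without both libraries and 22 and 0 with the 10 highest genes removed; 1 library left out gave 4 to 35 genes. In TG muscle, 16 genes became 31 with median-of-ratios and 29 with upper-quartile scaling, 28 with limma-voom, 3 with the groups compared alone, 71 without both libraries and 6 to 21 with 1 left out. For TG against WT, 0 genes became 1 at ZT0 with the groups alone or with thinned reads, 0 to 1 with 1 library left out, and 2 at ZT12 without both libraries. The causes were not tested. Equal replicate numbers gave no clear pairing over all tested genes: over 18 same-number pairs the correlation of deviations ran from -0.35 to 0.29, and for 5 of 12 libraries the closest library shared the number. Such a check cannot exclude a pairing in part of the genes. Red cell sums at ZT12 were 1526, 4257 and 176 TPM in WT replicates 1, 2 and 3, and 2959, 4565 and 145 TPM in TG. Slow fibre sums at ZT12 did not follow the number, at 490, 379 and 789 TPM in WT and 560, 590 and 264 TPM in TG. With the replicate block, 130 genes and 3 members were called between times, 15 genes in WT, 18 in TG, and 0 between genotypes or in the interaction.

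The fewest reads behind a value were 53 for Pfkfb2 and 103 for Slc2a1. With 3 libraries per group, the median standard error over genes was 0.19 for a contrast within 1 time or genotype.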
